A study of Danio rerio with 24 samples.

Results

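The genes described here are the contractile and metabolic genes of skeletal muscle: 42 named zebrafish genes for the thick and thin filaments, calcium handling, the elastic and Z-disc proteins and the energy supply of muscle. They were found by symbol in the count files, which list 32105 genes. Of the 42, 37 were matched to 38 rows, because xirp1 stands for 2 rows. The names tables give some of these genes only an ortholog's symbol in capitals, so 10 of these 37 form 5 pairs (ACTA1, MYL11, TNNT3, RYR1 and TTN) in which it could not be told which row is the a and which the b copy (for TTN, ttn.1 or ttn.2). Such rows are given by symbol and Ensembl ID. A further 4 genes (myl1, tnni2a.4, pygma and desma) fall under symbols shared by more rows than copies could be assigned to, and their 12 candidate rows are described apart. For smyhc3 no row was matched, and it is not analysed here.

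In striated muscle, myosin heavy and light chains of the thick filament pull on actin of the thin filament when calcium, released through ryanodine receptors, binds troponin. Calcium is then returned to its store by the pump encoded by atp2a1 and buffered by parvalbumins, while creatine kinase and glycolytic enzymes renew the ATP that is used. Fish trunk muscle is laid out in a superficial layer of slow fibres and a large deep mass of fast fibres, and each fibre type has its own set of myosin, troponin and myosin-binding genes. Titin and nebulin are very large proteins that set the length and elasticity of the sarcomere, the repeating unit of the filaments.

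RNA was sequenced from zebrafish after embryonic exposure to the solvent DMSO or to PCB126, a polychlorinated biphenyl that binds the aryl hydrocarbon receptor as dioxin does. Whole embryos at 48 hours post-fertilization (hpf) had DMSO or 0.3 nM PCB126. Whole larvae at 5 days post-fertilization (dpf) and brains of adults aged 4 months each had DMSO, 0.3 nM or 1.2 nM. All groups held 3 libraries, 24 in all, and fish meant for adulthood were moved to clean water after the exposure. The sources used here give no strain, sex, number of animals per library or length of exposure. The embryo and larval RNA was purified by another method than the brain RNA, so that age, tissue and extraction cannot be told apart between brain and whole animals. The series text calls the libraries of a group biological replicates. Counted reads ranged from 12480715 to 23022236 per library, and all 3 DMSO brain libraries (19498374 to 23022236) were deeper than the 6 exposed ones (13097392 to 18043641). Levels are in CPM, reads scaled to a common library size after TMM adjustment, and are given for replicates 1, 2 and 3 in that order. They are not scaled by transcript length, so levels are compared between libraries and not between genes. Summed levels of the 16 rows of the brain marker list (among them SNAP25, ELAVL3, GFAP and mbpa) were 13479 to 19991 CPM in brains and 1352 to 2145 CPM in whole animals. Of the brain sums, mbpa alone gave 4972 to 11592 CPM.

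One brain library, DMSO replicate 3, was known beforehand to hold muscle transcripts. Its levels are given here as a description with no test. In DMSO replicate 3, 32 of the 38 rows (84.2%) were higher than in any of the other 8 brain libraries, against 22.1% of the 19441 genes that reached 1 CPM in a brain library. The median row was at 10.8 times the median of the other 8, and the median of all those genes was at 1.03 times. Genes at 5 or more times the highest other library numbered 121 in this library, 20 of them muscle rows described here, 6 candidate rows and 27 of the 97 rows of a wider muscle list. In the other 8 brains the number of genes was 0 to 17, with none of the 38 rows among them.

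The skeletal actin gene actc1b was at 289 CPM in DMSO replicate 3 and at 2.87 to 49.2 CPM in the other 8 brains. The slow myosin heavy chain smyhc2 was at 28.2 CPM there and at most 0.554 CPM elsewhere. The rows of TTN (titin) were at 794 CPM (ENSDARG00000000563, other brains 44.0 to 121) and 909 CPM (ENSDARG00000028213, other brains 20.1 to 69.1). Muscle creatine kinase ckma was at 179 CPM against 1.60 to 17.5 CPM. All of these lay far above the range of the other libraries.

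The rows that did not stand out in DMSO replicate 3 included RYR1 (ENSDARG00000023797) at 193 CPM, within 189 to 301 CPM elsewhere, and ryr3 at 106 CPM, within 90.8 to 135 CPM. The same held for MYL11 (ENSDARG00000002589), TNNT3 (ENSDARG00000030270) and tnnt1. For both MYL11 and TNNT3, then, 1 row of the pair was raised and the other was not. TNNT3 (ENSDARG00000068457), a fast troponin T, was at 108 CPM against at most 8.95 CPM in other brains, while its partner was at 0.144 CPM. MYL11 (ENSDARG00000053254), a fast regulatory light chain, was at 180 CPM against at most 21 CPM, while its partner was at 1.25 CPM.

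Summed markers of some other tissues were also higher in this library. The 8 pituitary rows summed to 380 CPM, with all 8 at 1 CPM or more, against 5.69 to 48.4 CPM in the other brains. Growth hormone gh1 was at 96.0 CPM, lhb at 103 CPM and POMC at 35.8 CPM. The 16 cartilage and bone rows summed to 426 CPM (100.7 to 183.6 elsewhere), and the 8 skin rows to 391 CPM (148 to 296.5 elsewhere). Not every row of these lists was raised. SOX9 (ENSDARG00000003293) was at 30.3 CPM, lower than in any other brain (33.8 to 45.3), and the other SOX9 row, ihha and bglap were within range. Of the skin sum, 287 CPM came from krt8 (121 to 237 elsewhere), and cyt1, cyt1l and col17a1a were within range. Of genes outside the lists of members, col1a1a (862 CPM), COL1A2 (763), COL1A1 (620), GAPDH (344), atp2a1l (238) and nme2b.2 (229) were the 6 with the highest level among those standing apart. The smooth muscle list summed to 125.2 CPM (82.38 to 104.4 elsewhere). Within it acta2 was at 17.3 CPM (7.03 to 14.2 elsewhere), while CNN1 (ENSDARG00000102398) was at 1.59 CPM, within 0.518 to 1.72 CPM. The cardiac list summed to 10.3 CPM (2.75 to 6.89 elsewhere), and MYL7, the cardiac light chain, was at 0.241 CPM, within the 0.0597 to 0.622 CPM of other brains. Other rows of this list were highest in DMSO replicate 3, TNNI1 (ENSDARG00000052708) at 4.81 CPM (at most 3.37 elsewhere) and TNNT2 (ENSDARG00000020610) at 2.16 CPM (at most 0.83). So were TNNI1 (ENSDARG00000000474), myl4, tnnc1a and nppb, each at 0.337 CPM or less. The remaining rows of the cardiac list were not highest there. The sum over myogenic factors and satellite cell genes was 96.0 CPM (88.4 to 135.5 elsewhere), nearly all from the PAX7 and PAX3 rows. The myogenic factors MYOG (0.625 CPM, at most 0.0923 elsewhere) and MYF6 (0.433 CPM, at most 0.231 elsewhere) were highest in DMSO replicate 3, at low levels. MYOD1 (0.577 CPM, with 0.6 CPM in DMSO replicate 1) and MYF5 (0.192 CPM, with 0.207 CPM in 1.2 nM replicate 3) were not. The retina and lens list stood out in DMSO replicate 2 (93.6 CPM) and 0.3 nM replicate 3 (34.8 CPM), against 1.66 to 3.52 CPM in the others. The part of these tissues in the results for brain was not tested, and results are given with and without the library.

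At the low end, brain 1.2 nM replicate 1 had the lowest level of the 9 brains for 23 of 38 rows (60.5%, against 9.52% of all genes that reached 1 CPM). There actc1b was at 2.87 CPM and ckma at 1.60 CPM. In the other 8 brains (without DMSO replicate 3) the median row was at 0.296% of its level in DMSO larvae. There were 26 rows under 1% and 6 over 5% of the larval level. The 6 were RYR1 (ENSDARG00000023797, 59.2%), pvalb3 (44.5%), tnnt1 (32.3%), ryr3 (17.7%), tpm2 (16.9%) and RYR1 (ENSDARG00000011422, 8.12%).

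**Figure D1:**
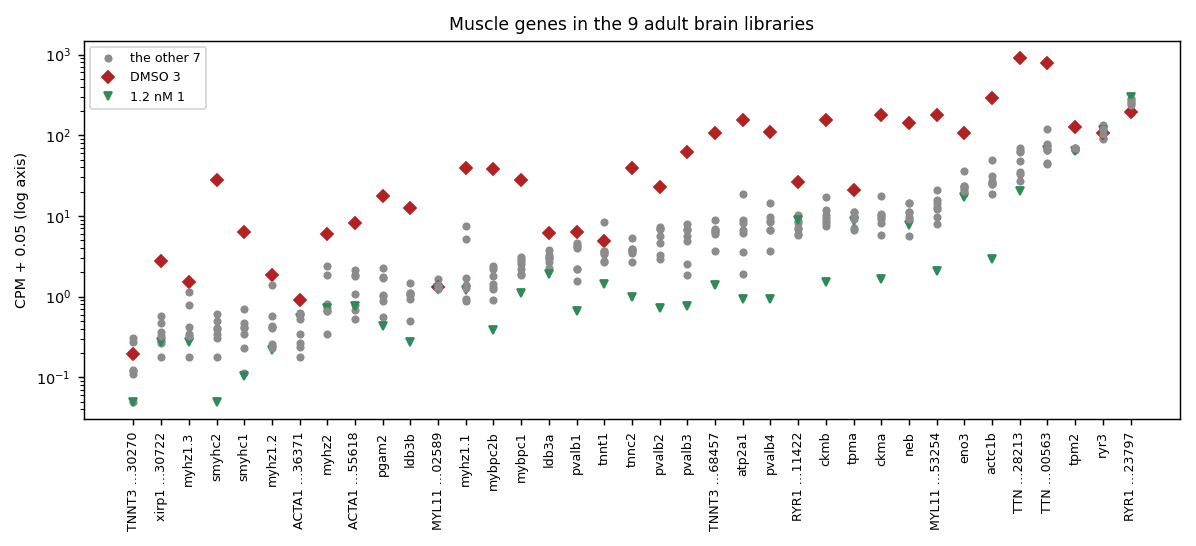
Levels of 37 muscle gene rows (x axis, ordered by the median of the brains other than DMSO replicate 3) in each of the 9 adult brain libraries, as CPM plus 0.05 on a log axis; xirp1 (ENSDARG00000092427), at 0 reads in every brain, is left out. Red diamonds (DMSO replicate 3) lie above the other libraries for 32 rows, green triangles (1.2 nM replicate 1) lie lowest for 23, and ryr3 and RYR1 (ENSDARG00000023797) at the right show neither.

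Between the DMSO embryos and the DMSO larvae, slow fibre genes, titin, nebulin and the fast myosin heavy chains rose, while the 2 ACTA1 skeletal actin rows, 1 troponin T, 1 regulatory light chain and the creatine kinases fell. Of 38 rows tested, 28 passed the test (73.7%; edgeR quasi-likelihood test, called at a Benjamini-Hochberg adjusted p under 0.05), 18 higher and 10 lower in larvae. Over all 22008 genes tested, 67.6% were called, 34.5% higher and 33.1% lower, so the share of muscle rows called is near that of genes in general; 69.9% of all genes and 73.7% of the rows had an unadjusted p under 0.05. The median log2 fold change of the rows was 0.226, beside 0.001 for all genes. In bulk libraries like these, fewer cells of a type and less RNA per cell cannot be told apart. Markers of other tissues also differed between the ages: in DMSO embryos and DMSO larvae the skin list summed to 20298 to 31241 and 9596 to 10047 CPM, the smooth muscle list to 145.4 to 169 and 579.1 to 602.5 CPM, and the cardiac list to 198.9 to 254.9 and 150.4 to 175 CPM. Their part in the muscle values was not tested.

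The 4 slow fibre rows were all called higher in larvae. The myosin-binding protein gene mybpc1, slow-type, was at 3.36, 6.66 and 3.96 CPM in DMSO embryos and at 51.7, 48.0 and 47.8 CPM in DMSO larvae, a rise of 10.5-fold (log2 fold change 3.40, SE 0.15, adjusted p = 8.33e-14). Slow troponin T, tnnt1, went from 1.97, 1.61 and 2.52 to 9.93, 8.62 and 12.9 CPM (log2 2.37, SE 0.18). The slow myosin heavy chains smyhc2 (24.7 ± 2.51 to 63.6 ± 10.2 CPM, SD, n = 3; log2 1.37) and smyhc1 (618.8 ± 78.4 to 997.5 ± 76.7 CPM; log2 0.69) rose less. For each of the 4, every larval library lay above every embryo library.

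Of the thick filament rows of fast fibres, the 4 fast myosin heavy chains rose. The level of myhz1.1 was 2700, 3623 and 1956 CPM in embryos and 7114, 7069 and 7645 CPM in larvae, with a log2 fold change of 1.40 (SE 0.22, adjusted p = 2.62e-05). For myhz2, myhz1.2 and myhz1.3 the log2 values were 1.70, 1.44 and 1.12. These genes lie close together in the RefSeq order of the genome and are similar in sequence, and reads that fit several genes were not counted, so the split between them is uncertain. The other 2 called rows fell. The fast-type myosin-binding protein gene mybpc2b was at 172, 263 and 151 CPM in embryos and 79.9, 83.7 and 85.7 CPM in larvae (log2 -1.23, SE 0.22), and MYL11 (ENSDARG00000002589) was at 1446, 1373 and 1639 CPM in embryos and 694, 699 and 793 CPM in larvae (log2 -1.02, SE 0.10). Its partner MYL11 (ENSDARG00000053254) had a log2 fold change of 0.12 (SE 0.12, adjusted p = 0.386).

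The thin filament rows went both ways, with 3 called higher and 4 lower. Nebulin (neb), which spans the thin filament, rose from 1002, 1330 and 696 to 2874, 3109 and 2666 CPM (log2 1.52, SE 0.21), and tropomyosin tpm2 rose by 0.60 on the log2 scale. TNNT3 (ENSDARG00000030270) fell from 622, 754 and 761 CPM to 118, 127 and 127 CPM, 5.71-fold lower (log2 -2.51, SE 0.13, adjusted p = 7.31e-13), and the other TNNT3 row had a log2 fold change of 0.25 (SE 0.12, adjusted p = 0.0716). Both skeletal actin rows ACTA1 fell, ENSDARG00000055618 from 2504, 3460 and 2824 to 1227, 1241 and 1198 CPM (log2 -1.26) and ENSDARG00000036371 by 0.90 on the log2 scale, while actc1b (0.20, SE 0.14, adjusted p = 0.199) was not called. Fast troponin C (tnnc2) fell by 0.36.

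Of the 8 calcium handling rows, 4 were called higher and 1 lower. The ryanodine receptors rose, ryr3 from 282, 400 and 260 to 674, 631 and 665 CPM (log2 1.07, SE 0.17) and the RYR1 rows by 0.82 (ENSDARG00000023797) and 0.76 (ENSDARG00000011422). Parvalbumin pvalb4 rose by 0.45, while pvalb1, pvalb2 and pvalb3 had log2 fold changes of 0.02, -0.01 and -0.22 and were not called. The calcium pump gene atp2a1 fell from 6655, 9636 and 7618 to 5389, 5129 and 5116 CPM (log2 -0.61, SE 0.14).

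Of the elastic and Z-disc rows 4 of 6 rose. The titin rows rose most in reads, TTN (ENSDARG00000000563) from 2821, 2932 and 1406 to 25538, 26106 and 26179 CPM (10.9-fold, log2 3.45, SE 0.25) and TTN (ENSDARG00000028213) from 2765, 2989 and 1420 to 23228, 23987 and 24114 CPM (log2 3.32, SE 0.25). Titin reads made up 0.466% ± 0.175 (SD, n = 3) of all reads in DMSO embryos and 5.13% ± 0.117 in DMSO larvae. Muscle rows without titin made up 6.01% ± 0.752 and 6.90% ± 0.0548. The titin rows are neighbours in the RefSeq order, so their split may likewise be uncertain. LDB3 homolog ldb3b, a Z-disc protein gene, rose by 0.35, and the row xirp1 (ENSDARG00000092427) had 0 reads in all DMSO embryos against 1.11, 0.934 and 1.39 CPM in larvae, at least 6.26-fold higher when the embryo level is set at a floor of 3 reads per library. With that row at its bound the median over the 38 rows was still 0.226. Among the energy genes, ckma (log2 -0.55), ckmb (-0.42) and the phosphoglycerate mutase pgam2 (-0.31) fell and eno3 (0.18, adjusted p = 0.0831) was not called.

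**Figure D2:**
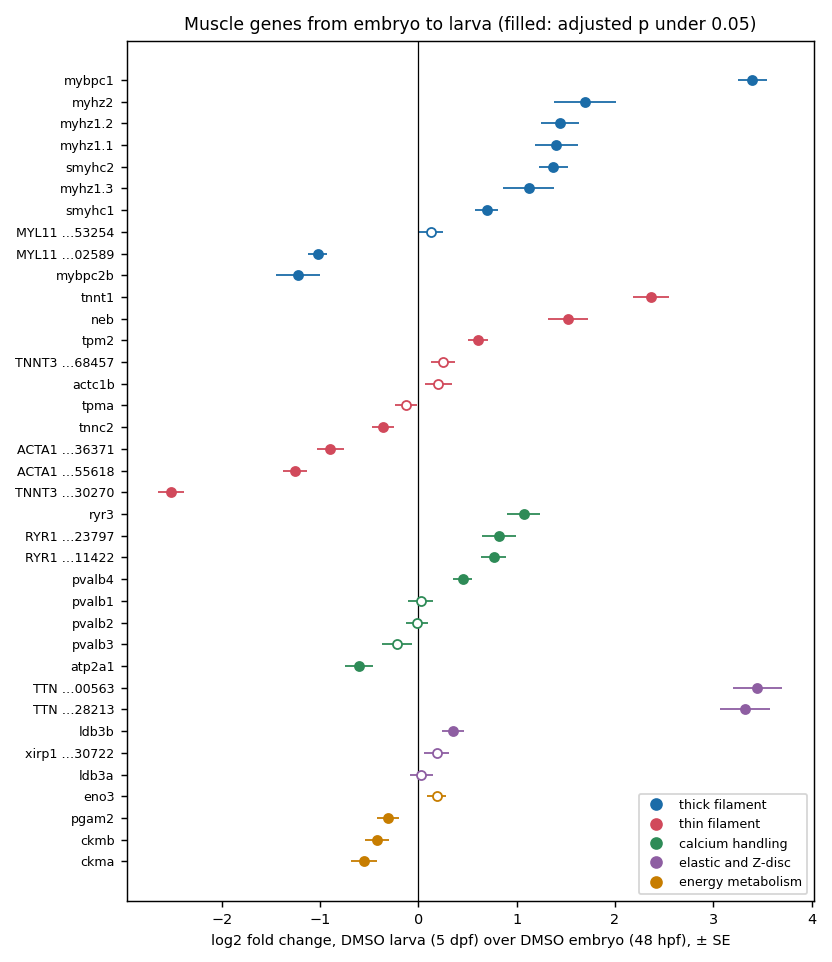
Log2 fold change of 37 muscle rows in DMSO larvae at 5 dpf over DMSO embryos at 48 hpf (x axis), with bars of 1 SE, grouped and coloured by role (y axis); filled points were called at an adjusted p under 0.05. Titin, mybpc1 and tnnt1 lie farthest to the right and 1 TNNT3 row farthest to the left, and the 2 rows of MYL11 and of TNNT3 lie on different sides of 0. The xirp1 row with 0 reads in embryos is left out.

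Summed over their rows, fast fibre genes (13 rows) were at 33556 ± 2708 CPM in DMSO embryos and 38294 ± 1586 CPM in DMSO larvae (SD, n = 3), and slow fibre genes (4 rows) at 650.1 ± 82.2 and 1121 ± 88.2 CPM. The ratio of the sums fell from 51.8 ± 2.39 to 34.2 ± 1.32. Single libraries gave 49.1 to 53.6 in DMSO embryos and 32.9 to 35.6 in DMSO larvae, so the groups did not overlap. In embryos exposed to 0.3 nM the ratio was 49.1 ± 1.90, and in larvae it was 35.4 ± 1.73 at 0.3 nM and 36.6 ± 1.85 at 1.2 nM. By replicate number the embryo ratios were 52.8, 49.1 and 53.6 after DMSO and 50.8, 47.0 and 49.4 after 0.3 nM. They overlapped between the groups and were lower after PCB126 in each same-numbered pair. These sums are given as a description with no test, and they follow the genes with most reads. In adult brain the sums were small, at 10.2 to 77.9 CPM for fast and 2.49 to 11.6 CPM for slow genes in the 8 libraries other than DMSO replicate 3, with ratios of 4.11 to 11.7. DMSO replicate 3 had 597.3 CPM of fast and 66.9 CPM of slow genes, a ratio of 8.93, so it lay above the other brains in both sums and within their range in the ratio. Adding the MYL1 and TNNI2 candidate rows, an alternative chosen after seeing the data, raised the fast sum in DMSO larvae to between 41807 and 44296 CPM.

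**Figure D3:**
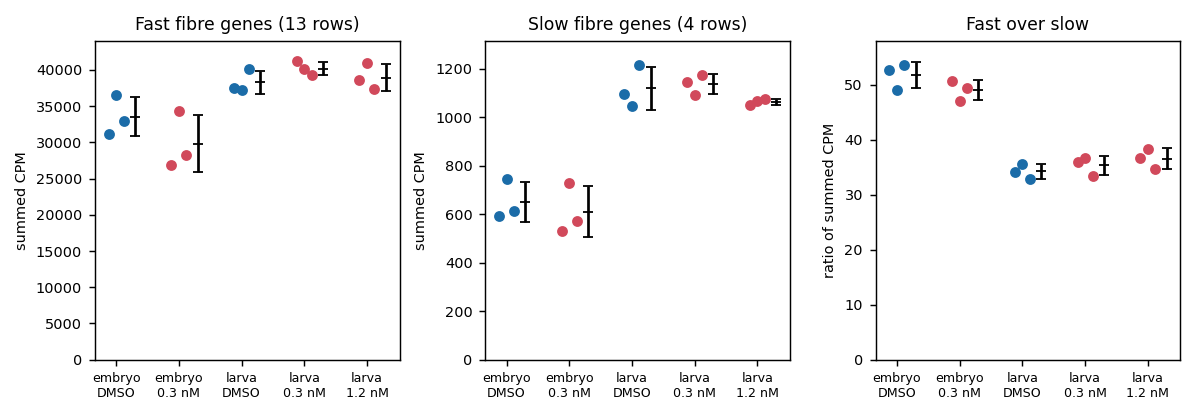
Summed CPM of the 13 fast fibre rows (left) and the 4 slow fibre rows (middle) and their ratio (right) in the whole-animal libraries; points are libraries (blue DMSO, red PCB126), and black bars give the mean and SD of 3. Both sums and the ratio separate embryos from larvae, with ratios of 47.0 to 53.6 in the embryo libraries and 32.9 to 38.4 in the larval ones. Fast sums lie closest, at 26946 to 36521 CPM in embryo libraries and 37219 to 41180 CPM in larval ones. Exposed groups overlap with their controls.

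In embryos, 0.3 nM PCB126 gave small negative log2 fold changes for most muscle rows and no call. Of 37 rows tested, 0 were called (edgeR quasi-likelihood test), 0 had an unadjusted p under 0.05 (2.59% of all genes had) and DESeq2 called 0. In this comparison 0.00987% of all genes were called. There were 29 rows below 0 and 8 above, with a median of -0.145 beside 0.003 for all genes. The blood marker list was also lower, at 347.5 to 442.5 CPM after DMSO and 253.3 to 337.5 CPM after PCB126, and its part in the muscle values was not tested. Within it only alas2 separated, at 145, 150 and 159 CPM after DMSO and 143, 89.1 and 109 CPM after PCB126. SLC4A1 (ENSDARG00000012881) overlapped, at 219, 188 and 270 CPM after DMSO and 184, 156 and 214 CPM after PCB126. The other SLC4A1 row, hbaa1 and hbaa2 overlapped as well, with hbaa1 and hbaa2 at no more than 1.08 CPM. The sums of all other marker lists overlapped between these groups. The smallest p belonged to ckmb, at 3094, 3847 and 3393 CPM after DMSO and 2155, 3126 and 2655 CPM after PCB126 (log2 -0.38, SE 0.18, unadjusted p = 0.0557, adjusted p = 1.0). The groups overlap, since replicate 2 was the highest library of each group. Next were ldb3b (-0.27), the ACTA1 rows (-0.31 and -0.30), pgam2 (-0.24) and TNNT3 (ENSDARG00000030270, -0.27). Of the fast rows 12 of 13 lay below 0, and of the slow rows 3 of 4 lay above.

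The same-numbered embryo libraries deviated together (correlations of their deviations from the group means 0.288 to 0.396), so the replicate number was also used as a block. With this block 18 of the 37 rows had an unadjusted p under 0.05, against 7.28% of all genes, and 0 were called, where 0.133% of all genes were. The values barely moved: ckmb was at -0.39 (SE 0.08, adjusted p = 0.0676), mybpc2b at -0.37 (adjusted p = 0.108), and actc1b and ckma at -0.29 and -0.31 (adjusted p = 0.191 for both). TTN went the other way, at 0.21 for each row (adjusted p = 0.571 and 0.574). One candidate row was called with the block, PYGM (ENSDARG00000055518), muscle glycogen phosphorylase, at -0.44 (adjusted p = 0.0477). Its levels were 146, 167 and 117 CPM after DMSO and 98.2, 123 and 94.9 CPM after PCB126, and the groups overlap.

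In larvae, muscle rows differed little after exposure. At 0.3 nM, 0 of 38 rows were called (0.0% of all genes were; DESeq2 called 0) and 3 had an unadjusted p under 0.05 (7.89%, beside 4.76% of all genes). The median was 0.0615 beside 0.0 for all genes, with 30 rows above 0, among them all 13 fast rows. The 3 with a small p were ACTA1 (ENSDARG00000055618), ckma and ACTA1 (ENSDARG00000036371), with log2 fold changes of 0.20, 0.18 and 0.22. The first of them went from 1227, 1241 and 1198 to 1317, 1444 and 1440 CPM, and ckma from 3146, 2881 and 2961 to 3500, 3433 and 3270 CPM. For 9 of the 38 rows, these 3 among them, every exposed larval library lay above every DMSO one. The adjusted p was still 0.995 for each of the 3, and 0.0% of all genes were called. The share of all genes that separated in this way was not counted, so the 9 rows cannot be set against a background and are not read as a result. The next rows were myhz1.2 (0.14), ckmb (0.10) and MYL11 (ENSDARG00000002589, 0.10).

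At 1.2 nM, 0 of 38 rows were called in larvae, as against 0.046% of all genes (0.0322% higher and 0.0138% lower), and DESeq2 called 0. There were 2 with an unadjusted p under 0.05 (5.26%, beside 6.78% of all genes), and the median was 0.00943. The fast-type myosin-binding protein mybpc2b was at 71.2, 73.1 and 72.1 CPM, below the DMSO larvae (79.9, 83.7 and 85.7 CPM; log2 -0.21, SE 0.06, adjusted p = 0.518) and below the larvae of 0.3 nM (88.3, 82.1 and 84.5 CPM; log2 -0.24, SE 0.06, adjusted p = 0.669). ACTA1 (ENSDARG00000036371) was at 0.19, and eno3 and myhz1.2 at 0.10 and 0.11. Set directly against 0.3 nM, 0 of 38 rows were called at 1.2 nM (DESeq2 0; 1 row at an unadjusted p under 0.05) where 0.023% of all genes were (0.00921% higher and 0.0138% lower; 4.57% had an unadjusted p under 0.05). Of the rows, 30 of the 38 lay below 0 (median -0.0441).

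The difference of the 0.3 nM effect between larvae and embryos was tested in 1 fit of the 15 whole-animal libraries. Of 38 rows, 0 were called (DESeq2 0; 0.0% of all genes), and 5 had an unadjusted p under 0.05 (13.2%, beside 4.91% of all genes). The median difference was 0.207 beside -0.001 for all genes. ACTA1 (ENSDARG00000055618) differed by 0.51 (SE 0.17, adjusted p = 0.967), ckmb by 0.49, ACTA1 (ENSDARG00000036371) by 0.54 and ckma by 0.49. The row xirp1 (ENSDARG00000092427) had the smallest p, with 0 reads in DMSO embryos and 0.205, 0.154 and 0.241 CPM in exposed ones, and no fold is given for it.

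**Figure D4:**
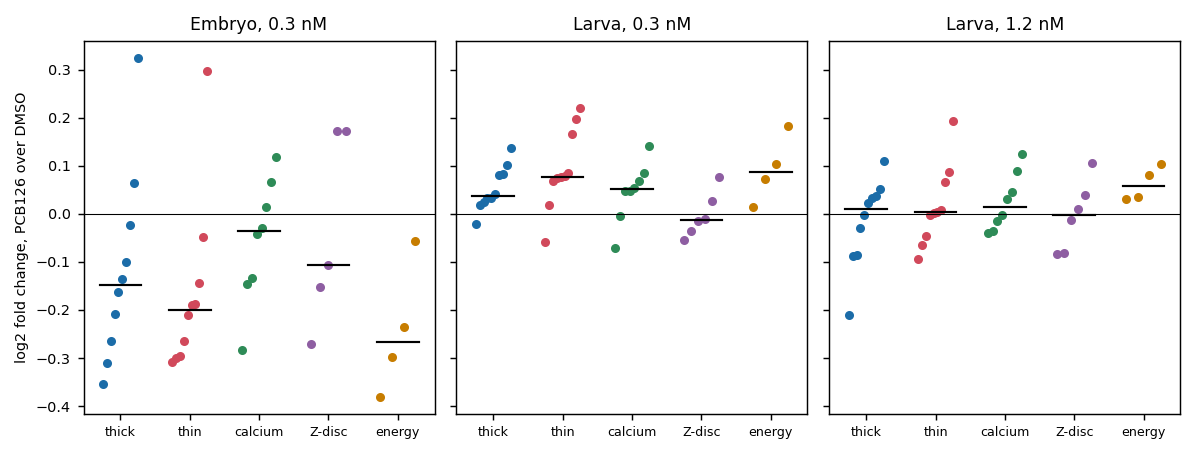
Log2 fold change of PCB126 over DMSO (y axis) for the muscle rows by role (x axis) in embryos at 0.3 nM and in larvae at 0.3 and 1.2 nM; each point is a row and the black line the median of a role. Most rows of each role lie below 0 in embryos and close to 0 in larvae, within -0.38 to 0.32 in embryos, and none was called.

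In adult brain, the 2 rows that were called after 0.3 nM were ryanodine receptors, and both were higher. Of 38 rows, 31 had enough reads to be tested, with or without DMSO replicate 3. The 7 others included both slow myosin heavy chains, myhz1.2 and 1 TNNT3 row, with at most 586 reads in a brain library; smyhc2, smyhc1 and xirp1 (ENSDARG00000030722) reached their highest counts in DMSO replicate 3, and xirp1 (ENSDARG00000092427) had 0 reads. By edgeR, 6.45% of the tested rows were called, both higher, beside 7.82% of all genes called higher and 13.7% called in either direction (5.9% lower), so the count is no more than the background. Brain marker genes themselves summed to 16908 to 19991 CPM in the 3 DMSO brains and to 13479 to 16526 CPM in the 6 exposed ones. Much of each sum was mbpa, at 8087 to 11592 CPM in DMSO brains and 4972 to 7390 CPM in exposed ones. Not every row of the list was lower: ELAVL3 was at 257 to 322 CPM in DMSO brains and 386 to 450 CPM in exposed ones.

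RYR1 (ENSDARG00000023797), which encodes the calcium release channel of skeletal muscle and is also read in brain, was at 189, 206 and 193 CPM after DMSO, at 238, 283 and 281 CPM after 0.3 nM and at 301, 251 and 257 CPM after 1.2 nM. All 6 exposed libraries lay above the 3 DMSO ones. The log2 fold change was 0.46 at each dose (SE 0.10), with an adjusted p of 0.0147 at 0.3 nM and 0.0265 at 1.2 nM. Without DMSO replicate 3 it was 0.45 at both doses, with adjusted p of 0.0317 and 0.0513. Of the fits that left out 1 library, the 0.3 nM call was lost without 0.3 nM replicate 2 (adjusted p = 0.0565) or replicate 3 (0.0601). The 1.2 nM call was lost in all of them except that without DMSO replicate 2, with an adjusted p of 0.0513 to 0.102. The share of all genes called fell as well in the fits that lost the call. At 0.3 nM it went from 13.7% to 4.83% and 4.88%, and at 1.2 nM from 9.05% to between 0.0651% and 2.68%.

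The other called row, ryr3, was at 91.8, 90.8 and 106 CPM after DMSO and 104, 128 and 135 CPM after 0.3 nM (log2 0.36, SE 0.10, adjusted p = 0.0376), and at 116, 121 and 116 CPM after 1.2 nM (0.30, SE 0.10, adjusted p = 0.0863). DMSO replicate 3 lay above the lowest 0.3 nM library. Without DMSO replicate 3 the values were 0.43 (adjusted p = 0.0307) and 0.37 (adjusted p = 0.0751), and the 0.3 nM call was lost without DMSO replicate 1 or 2 or 0.3 nM replicate 2 or 3, with an adjusted p of 0.0769 to 0.15. Between brain and larva the 0.3 nM effect on these genes was not called as different, by 0.45 for RYR1 (ENSDARG00000023797; adjusted p = 0.231) and 0.30 for ryr3 (adjusted p = 0.452), in a test added after seeing the data that called 5.71% of all genes.

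At 1.2 nM, RYR1 (ENSDARG00000023797) was the called row of 31 (3.23%, beside 5.69% of all genes called higher, 3.36% lower and 9.05% in either direction). Without DMSO replicate 3 there were 2 called rows at 0.3 nM and 0 at 1.2 nM, where 7.16% and 2.68% of all genes were called. The other contractile rows had a wide spread. After 0.3 nM and 1.2 nM, 28 and 29 of the 31 rows lay below 0, with medians of -2.25 and -2.56 beside -0.019 and -0.029 for all genes; without DMSO replicate 3 the medians were -0.396 and -0.604. An unadjusted p under 0.05 was found for 9 rows at 0.3 nM (29.0%, beside 30.2% of all genes) and 17 at 1.2 nM (54.8%, beside 27.9%), and for 3 rows at each dose without DMSO replicate 3 (4758 and 4129 of 19792 genes). In the edgeR fit of the 9 brain libraries with no block, no row was called lower. With the replicate block ACTA1 (ENSDARG00000055618) was called lower at 1.2 nM (log2 -1.53, adjusted p = 0.047), beside 362 of 19347 genes. Its levels were 1.75, 1.04 and 8.08 CPM after DMSO and 0.718, 0.478 and 2.07 CPM after 1.2 nM. Without DMSO replicate 3, and with no block, its log2 value was -0.39 (adjusted p = 0.778). Same-numbered libraries of these groups did not deviate together (correlations of -0.208 to 0.0157). At the same dose myhz2 and myhz1.1 were called lower without DMSO replicate 2, beside 821 of 19872 genes. That fit kept DMSO replicate 3 among fewer DMSO libraries. By DESeq2, 4 rows were called lower at 0.3 nM and 6 at 1.2 nM, beside 1386 and 934 of 27823 genes. A fit of all 24 libraries called 19 and 21 rows lower, beside 2255 and 1730 of 22545 genes. Both of these fits kept DMSO replicate 3, and neither was repeated without it for these comparisons. In the edgeR fit of the brain libraries without DMSO replicate 3, no row was called lower at either dose. Both doses share the 3 DMSO libraries.

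Of the rows next in order of p, mybpc2b was at 2.35, 2.18 and 38.1 CPM after DMSO and 1.21, 0.861 and 1.26 CPM after 0.3 nM (log2 -3.64, SE 1.37, adjusted p = 0.133), and without DMSO replicate 3 the log2 value was -1.01 (adjusted p = 0.249). TTN (ENSDARG00000000563), at 121, 65.3 and 794 against 44.0, 45.9 and 76.9 CPM, gave -2.53 (SE 0.95), and -0.73 without that library. Parvalbumin pvalb3 was at 7.98, 6.89 and 61.5 against 2.49, 4.88 and 1.78 CPM, and tpma at 11, 9.64 and 21 against 7.03, 11.3 and 6.58 CPM. Their log2 fold changes were -3.03 and -0.72 with DMSO replicate 3 and -1.27 and -0.30 without it. At 1.2 nM the rows with the smallest p after these were myhz2, atp2a1, myhz1.1 and TTN (ENSDARG00000028213), with log2 fold changes of -2.36, -4.29, -3.87 and -3.52, and adjusted p of 0.111 to 0.133. Without DMSO replicate 3 these were -1.20, -2.04, -2.03 and -1.0, with adjusted p of 0.26 to 0.336. The SE of these 4 ranged from 0.84 to 1.44, and DMSO replicate 3 was the highest brain library for each. Between 1.2 and 0.3 nM in brain 0 of 31 rows were called (DESeq2 0, 0 at an unadjusted p under 0.05; 0.0972% of all genes were called, 0.0512% higher and 0.046% lower, and 9.64% had an unadjusted p under 0.05), with a median of -0.192.

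**Figure D5:**
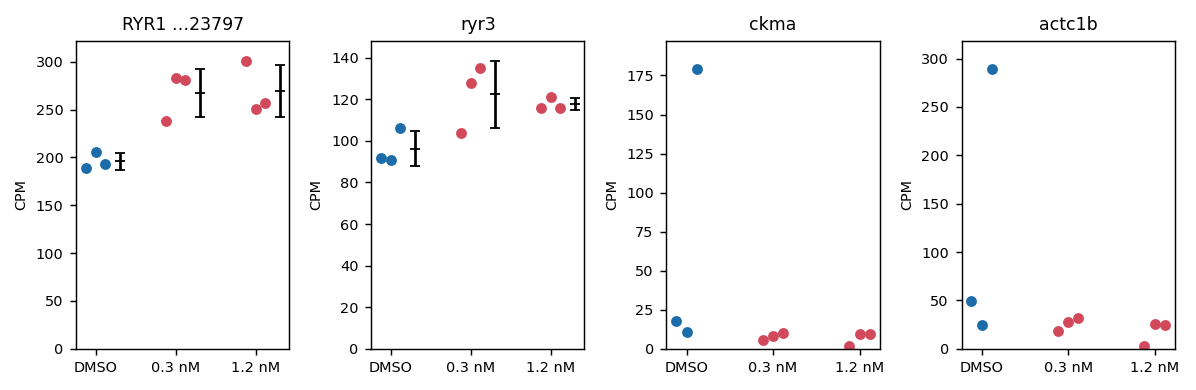
CPM (y axis) of RYR1 (ENSDARG00000023797), ryr3, ckma and actc1b in each brain library after DMSO (blue), 0.3 nM and 1.2 nM (red); black bars give mean and SD of 3 for the ryanodine receptors only. All exposed libraries lie above DMSO for RYR1, and for ckma (179 CPM) and actc1b (289 CPM) the highest DMSO point is replicate 3.

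The candidate rows of myl1, tnni2a.4, pygma and desma were called between embryos and larvae in 10 of 12 cases, 7 higher and 3 lower, beside 67.6% of all genes (34.5% higher and 33.1% lower). TNNI2 (fast troponin I) rows went both ways. ENSDARG00000045592 was at 0.127, 0.238 and 0.600 CPM in DMSO embryos and 60.8, 53.2 and 68.3 CPM in DMSO larvae (log2 7.52, SE 0.21), and ENSDARG00000029069 fell from 1451, 1544 and 1715 to 910, 939 and 931 CPM (log2 -0.75). DES (ENSDARG00000005221), a desmin row, rose by 5.15 on the log2 scale. Of the MYL1 rows (myosin light chain), ENSDARG00000017441 rose by 0.27 and ENSDARG00000014196 fell by 0.70. PYGM (ENSDARG00000013317) was the one candidate row over 5% of the larval level in brain, at 410 to 512 CPM in all 9 brains against 153, 153 and 154 CPM in DMSO larvae, and it was not raised in DMSO replicate 3 (425 CPM).

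A wider list of 97 other muscle rows was chosen with earlier results of these data known. From embryo to larva 52 of 96 rows tested rose and 22 fell (77.1% called, beside 67.6% of all genes). The 6 with the smallest p rose: myhb, a myosin heavy chain (log2 4.00), MYLK4 (ENSDARG00000091260, myosin light chain kinase, 2.61), tpm1 (tropomyosin, 2.13), mybpha (3.37), CKMT2 (ENSDARG00000069615, mitochondrial creatine kinase, 2.70) and MYL2 (ENSDARG00000104722, 2.49). No row of the list was called in embryos (0 of 94) or in larvae (0 of 96 at each dose) by edgeR or DESeq2; an unadjusted p under 0.05 was found in edgeR for 4, 3 and 8 rows. In brain, by edgeR, 2 of 81 rose and 7 fell at 0.3 nM (11.1% called, beside 13.7% of all genes), and 2 of 81 were called at 1.2 nM (2.47%, beside 9.05%); ANK1 (ENSDARG00000074777) rose at both doses (log2 0.43 and 0.42). PHKG1 (ENSDARG00000030604, phosphorylase kinase) was at -0.97, HHATL (ENSDARG00000039051) at -0.43, ALDOA (ENSDARG00000011665, aldolase) at -0.31, MEF2D at 0.40 and MYOZ2 (ENSDARG00000037266) at -1.65 at 0.3 nM. The other HHATL and MYOZ2 rows of the list were not called. Without DMSO replicate 3, 2 rows of this list (PHKG1 and ANK1) were called at 0.3 nM and 0 at 1.2 nM, where 7.16% and 2.68% of all genes were.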

How the data were processed

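The authors deposited 1 file of raw counts per library, whole-number reads per Ensembl gene, without normalization. Per the submitters' processing notes, FastQC, STAR, HTSeq and edgeR were used with the GRCz10 build; no version or annotation release is given in the sources used here. Libraries were read from 1 end over 50 bases, stranded, after ribosomal RNA depletion, per the labels' protocols. Gene symbols came from tables that pair Ensembl IDs with symbols; the RefSeq table, of another assembly, gave only gene order. Sequences are not used here.

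The muscle genes, fibre classes and lists were chosen with earlier results of these data known. Each age was fitted alone with all its groups in edgeR 4.0.16 (R 4.3.3; filterByExpr, TMM, robust quasi-likelihood, Benjamini-Hochberg over all genes). The embryo to larva comparison and the difference between these ages used the 15 whole-animal libraries, since muscle genes are near 0 in most brains; a fit of all 24 is an alternative. SE is the log2 fold change over the root of F. No library pair agreed within sampling noise (lowest chi-square per degree of freedom 2.42). Same-numbered embryo libraries correlated at 0.288 to 0.396 and others at -0.174 on average, so the block is printed there. Elsewhere the lowest same-numbered correlation was below the threshold of 0.1. Larvae at 1.2 against 0.3 nM came nearest, at 0.0759 to 0.274, with others at -0.0952 on average. There the block called 0.408% of all genes, beside 0.023% in the main fit, and 0 of the muscle rows. Tested on simulated counts, the median fitted folds were close to those put in, and the smallest simulated fold was called least often. Alternatives added after seeing the data were the difference between brain and larva (with and without DMSO brain replicate 3), a fast sum with the candidate rows and counts at an unadjusted p. The rule for named genes takes every called row and up to 6 of smallest p per comparison. Alternatives were DESeq2 1.42.0, RLE factors, no filter, the replicate block, only the groups compared, all 24 libraries and leaving out each library. For the wider muscle list, 1 result in brain is not reported here.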

Additional observations from a re-analysis of the deposited data

Results flagged for a closer look

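The 0.3 nM effect on TNNI2 (ENSDARG00000029995), one of the candidate rows for fast troponin I, differed between brain and larva by -2.59 on the log2 scale (SE 0.69, adjusted p = 0.0375), in the test of that difference in 1 fit of all 24 libraries, which was added after seeing the data. The row was at 4.11, 2.9 and 13.9 CPM in DMSO brains and 1.02, 2.01 and 0.888 CPM in brains of 0.3 nM, with the highest value in DMSO replicate 3. In larvae it was at 158, 152 and 161 CPM after DMSO and 180, 189 and 160 CPM after 0.3 nM. Without DMSO brain replicate 3 the difference was -1.60 (adjusted p = 0.0772), and at 1.2 nM it was -1.97 (adjusted p = 0.109). In groups of 3, single libraries were not tested for standing apart.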

How the results depend on the processing

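Leaving out 1 library changed the count of rows called in brain at 0.3 nM (2) to between 0 and 2 and at 1.2 nM (1) to between 0 and 3. In those fits 4.83% to 15.3% and 0.0651% to 11.4% of all genes were called, beside 13.7% and 9.05% with all libraries. In the development comparison (28) the count was between 27 and 29 (62.1% to 64.8% of all genes). It stayed at 0 in the other comparisons, where at most 0.151% of all genes were called. DESeq2 called 6 rows at 0.3 nM and 8 at 1.2 nM in brain (11.9% and 9.46% of all genes), the fit of all 24 libraries 19 and 21, all lower (18.3% and 15.2% of all genes), and the fit of only the groups compared 1 and 1 (6.78% and 9.52%). All of these fits kept DMSO brain replicate 3. For development the fit of all 24 libraries called 17 rows (63.7% of all genes); the cause was not tested. The replicate block (4.52% and 4.24% of all genes) gave 1 row at 0.3 nM (RYR1 ENSDARG00000023797) and at 1.2 nM 1 row, which was ACTA1 (ENSDARG00000055618), lower, while RYR1 had an adjusted p of 0.0541; it changed no other member count from 0 or 28. The larval 1.2 nM slow sum was 1084 CPM on plain totals (1065 with TMM). With the MYL1 and TNNI2 rows added, chosen after seeing the data, the fast sum was 38115 CPM in DMSO embryos, 42703 in DMSO larvae, 44925 in 0.3 nM larvae and 43596 in 1.2 nM larvae. With 3 times instead of 5, genes standing apart numbered 6, 46 and 209 in DMSO brains 1 to 3 (1, 17 and 121 at 5 times), 6, 7 and 12 in 0.3 nM brains (4, 2 and 4), and 1, 6 and 4 in 1.2 nM brains (0, 3 and 3). Of 5324 results of single rows under alternatives, 5201 kept their call and direction, 81 became called and 42 lost the call; 0 reversed. Most comparisons had 0 rows called in the main fit, so most of the 5201 were rows uncalled in both fits. Brain rows of a few reads are limited by depth.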
